A study of Mus musculus with 4 samples.

Results

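The genes of fatty acid oxidation and the targets of PPAR alpha were followed across the cells of the mouse small intestine. The 28 genes were taken by symbol from the 32285 genes of the deposited matrix, and all 28 were found. They are Ppara itself, 4 genes of the carnitine shuttle, 6 of the mitochondrial spiral, 4 that handle unsaturated fatty acids, 3 of electron transfer, 4 of peroxisomal oxidation, 2 acyl-CoA thioesterases and 4 further targets. They were chosen by name, with earlier results of these data known.

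The samples came from male C57BL/6J mice that were 8 weeks old when the diets were started. All diets were high in fat and contained l-NAME, which blocks nitric oxide synthase. The mice were fed for 7 weeks and were 15 weeks old at collection. In 2 samples the diet held no added IPA (3-indolepropionic acid, a tryptophan metabolite made by gut bacteria), and in the other 2 it held 562.5 mg of IPA per kg. Each sample was a pool of 2 mice, so single animals cannot be told apart. The cells were released from the epithelial layer of ileum and jejunum and sorted as DAPI-negative, which keeps live epithelial and intraepithelial immune cells. The 4 libraries share 1 matrix in which each barcode ends in a number from 1 to 4, and the labels do not say which number is which sample. The diet of each library is therefore not known here. All values below are given for each library, with no comparison between diets, and the libraries are not replicates of a group.

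Fatty acids are oxidised in mitochondria after the carnitine shuttle has carried them through the inner membrane. A repeated cycle of 4 steps then shortens the chain, and electron transfer flavoprotein passes the electrons to the respiratory chain. Peroxisomes shorten very long and branched chains with a separate set of enzymes. PPAR alpha is a nuclear receptor that binds fatty acids, pairs with a retinoid X receptor and switches on many of these genes. In the small intestine, absorptive enterocytes take up most dietary fat and mature as they move from the crypt to the villus tip.

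Of 44277 barcodes, 25788 held at least 500 UMIs (unique molecular identifiers, each standing for 1 captured RNA molecule) and 250 genes with at most 25% of UMIs from mitochondrial genes. Between 6174 and 7122 barcodes were kept in each library, with a median of 22601 to 27622 UMIs. Among the kept barcodes, 75 barcode sequences occurred in more than 1 library. Cells were assigned to classes by the share of their UMIs in fixed marker lists. Enterocytes numbered 4759, 5024, 3528 and 5344 in libraries 1 to 4, with a median enterocyte marker share of 126951 UMIs per 1000000 against 3929 in stem-gated and 6357 in cycling cells. The gates themselves use this share, so the difference follows from them and does not test the classes. Stem-gated cells numbered 109, 215, 184 and 72, cycling cells 226, 532, 335 and 216, and the 2 classes together are called crypt cells. T and NK cells numbered 320 and 1248 in libraries 1 and 3 but 2 and 4 in libraries 2 and 4. The levels below are UMIs per 1000000 UMIs of the class (CPM). They are not scaled to gene length, so levels are compared between cells and not between genes. Intervals are exact Poisson 95% intervals and cover counting error only.

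Free RNA sets a floor for these levels. In T and NK cells, 12 enterocyte transcripts (the gate markers and Apoa4) stood at 8.39% to 23.0% of their enterocyte level in library 1 and at 15.1% to 24.9% in library 3. Of the 28 genes, 17 in library 1 and 23 in library 3 lay above the highest of these shares in the same cells, for example Etfb at 52.9% and 51.0%. Ppara, Cyp4a10, Acaa1b, Vnn1 and Hsd17b4 lay within or below the range in both libraries, so their UMIs in T and NK cells cannot be told apart from background. Whether they are background was not tested. Fewer RNA molecules of a gene per cell and more RNA from other genes cannot be told apart in a share of UMIs.

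Enterocytes were compared with crypt cells of the same library to ask where along differentiation the genes are high. A gene was called where the ratio was at least 2-fold in the same direction in all 4 libraries. Of the 28 genes, 8 were higher in enterocytes: Ehhadh, Acaa1a, Acaa1b, Hsd17b4, Crat, Decr1, Cyp4a10 and Vnn1. Of all 7557 genes with a mean of at least 10 CPM, 13.7% met the same rule. No member was lower by the rule, against 28.9% of all genes. The median log2 ratio was 0.69 over the 28 genes and -0.39 over all genes.

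The peroxisomal enzymes were higher in enterocytes in every case, 4 of 4, with a median log2 ratio of 1.94. Acaa1b, a peroxisomal thiolase, stood at 136, 104, 175 and 176 CPM in the enterocytes of libraries 1 to 4 and at 7.31, 5.22, 10.6 and 9.56 CPM in crypt cells, a 16.5-fold to 19.8-fold difference. The groups do not overlap. Ehhadh, the bifunctional enzyme of the peroxisomal cycle for straight chains, stood at 101, 70.7, 107 and 83.8 CPM in enterocytes and at 21.8, 21.3, 24.7 and 21.3 CPM in crypt cells (3.32-fold to 4.61-fold). Acaa1a, the neighbouring thiolase gene, was 3.23-fold to 3.43-fold higher, the narrowest range of the 4. Hsd17b4, the bifunctional enzyme needed for branched and very long chains, was 3.36-fold to 3.96-fold higher. In GRCm38 Acaa1a lies at chr9:119339676-119350299 and Acaa1b at chr9:119148023-119157093, with start sites 182.583 kb apart. Their transcripts share 175 of the 451 windows of 50 bases in the last 500 bases of Acaa1b (38.8%), so the authors' counting may have lost or split reads between them, and the 2 values are uncertain to that extent.

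The carnitine shuttle was uneven. Crat, which moves acetyl and other short groups between carnitine and CoA, was at 121, 97.1, 128 and 131 CPM in enterocytes and at 17.2, 17.6, 18.3 and 19.3 CPM in crypt cells (5.52-fold to 6.99-fold). Cpt2, which returns the acyl group to CoA inside the mitochondrion, was 1.68-fold to 2.06-fold higher in enterocytes, and Slc25a20, the translocase of the inner membrane, 1.76-fold to 2.04-fold higher, both short of the 2-fold rule in at least 1 library. Cpt1a, the outer membrane enzyme that commits fatty acids to entry, lay the other way: 57.7, 57.7, 68.3 and 65.5 CPM in enterocytes against 88.3, 83.6, 105 and 83.0 CPM in crypt cells. All 4 Cpt1a ratios were below 1 (0.65 to 0.79) without reaching the rule.

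None of the 6 genes of the mitochondrial spiral met the rule, though every one was above its crypt level in all 4 libraries (median log2 ratio 0.69). Acadl, the long-chain acyl-CoA dehydrogenase, was 1.89-fold to 2.59-fold higher in enterocytes and missed the rule through library 2 alone. Acadm, the medium-chain enzyme, was 1.91-fold to 2.07-fold higher, and Acaa2, the mitochondrial thiolase, 1.71-fold to 1.97-fold. Acadvl, the very-long-chain enzyme, Hadha and Hadhb were nearer to parity, at 1.37-fold to 1.61-fold, 1.27-fold to 1.47-fold and 1.12-fold to 1.27-fold. The electron transfer genes were flatter still: Etfa and Etfb, the subunits of the flavoprotein, and Etfdh, its oxidoreductase, had a median log2 ratio of 0.23 and none was called.

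**Figure D1:**
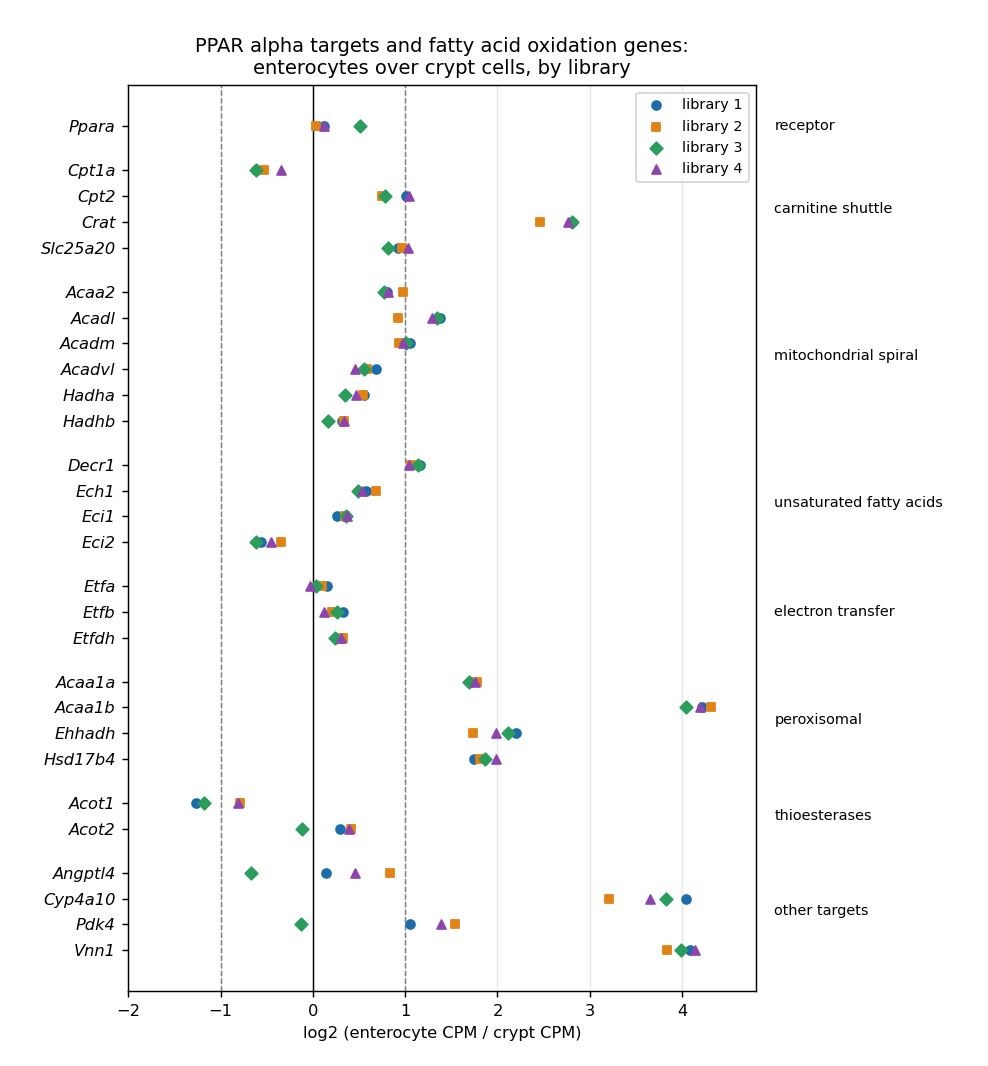
Log2 ratio of the enterocyte to the crypt level of each gene (x axis), 1 point per library, with genes grouped by role. Dashed lines mark 2-fold. The 4 peroxisomal genes lie to the right of the upper line in all 4 libraries, whereas Cpt1a, Eci2 and Acot1 lie left of 0 in all 4.

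Among the genes for unsaturated chains, Decr1, the mitochondrial dienoyl-CoA reductase, was called (2.06-fold to 2.24-fold). Ech1, a dienoyl-CoA isomerase, was 1.41-fold to 1.61-fold higher and Eci1, the mitochondrial enoyl-CoA isomerase, 1.20-fold to 1.29-fold higher. Eci2, an enoyl-CoA isomerase of peroxisomes and mitochondria, lay below its crypt level in all 4 libraries (ratios of 0.65 to 0.79).

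Cyp4a10, an omega-hydroxylase of fatty acids and a classical PPAR alpha target, stood at 49.7, 41.8, 92.5 and 88.1 CPM in enterocytes and at 3.01, 4.52, 6.52 and 6.98 CPM in crypt cells (9.24-fold to 16.5-fold). Vnn1, a membrane-bound pantetheinase, stood at 60.3, 62.7, 74.7 and 74.1 CPM against 3.54, 4.39, 4.69 and 4.19 CPM (14.3-fold to 17.7-fold). For both genes, and for Acaa1b, the crypt level is a low share of the enterocyte level. Several enterocyte markers kept a higher share in T and NK cells of libraries 1 and 3. Those cells had a median of 3816 UMIs, against 23580.5 in stem-gated and 37090 in cycling cells, so their share may not apply to crypt cells. Libraries 2 and 4 held too few T and NK cells for such a share. How much of the crypt level is background was not tested. Cyp4a10 shares 27 of its 454 windows near the transcript end with Cyp4a31, which leaves a small part of its counting uncertain. Pdk4, the kinase that switches off pyruvate dehydrogenase, and Angptl4, a secreted inhibitor of lipoprotein lipase, were not called. Both were below their crypt level in library 3 (0.91-fold and 0.63-fold) and above it in the other 3 libraries.

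Ppara itself was not called. Its enterocyte level was 19.3, 25.7, 37.1 and 29.1 CPM and its crypt level 17.8, 25.1, 26.0 and 26.8 CPM, ratios of 1.02 to 1.42. The 2 levels overlap across libraries. Cells without a gate that held 1% to 3% enterocyte markers, called intermediate here, had 37.5, 44.8, 54.0 and 53.4 CPM, the highest of the 6 epithelial classes compared in each library. Among these 6 classes, which did not include tuft cells, 13 of the 28 genes were highest in enterocytes in all 4 libraries. Another 5 were highest in intermediate cells (Ppara, Slc25a20, Etfb, Eci1 and Eci2), 1 in stem-gated cells (Acot1) and 9 in classes that varied by library. No share over all genes is given for these counts, so they describe only the 28 genes. The intermediate class is a range of a score, and 968 cells lay within 1.3-fold of the cut between it and enterocytes.

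The thioesterases, which release free fatty acids from CoA, differed from each other. Acot1, the cytosolic form, stood at 155, 106, 277 and 182 CPM in stem-gated cells, at 102, 85.8, 197 and 129 CPM in cycling cells, at 83.9, 88.0, 155 and 108 CPM in intermediate cells and at 47.4, 51.8, 96.0 and 79.0 CPM in enterocytes. In libraries 1, 3 and 4 each step of this series was lower than the one before, and in library 2 the cycling and intermediate cells were near each other. Acot1 in enterocytes was 0.41 to 0.58 of its level in crypt cells, past 2-fold in libraries 1 and 3 only. Acot2, the mitochondrial form, whose start site lies 21.629 kb away on chromosome 12, had crypt and enterocyte levels within 1.33-fold of each other in all libraries, from 16.4 to 29.8 CPM in crypt cells. No window of 50 bases near the transcript ends is shared between Acot1 and Acot2.

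Hadha and Hadhb encode the alpha and beta subunits of the mitochondrial trifunctional protein, which carries out the last 3 steps of the spiral on long chains. They are transcribed away from each other on chromosome 5, Hadha at chr5:30118304-30155162 on the minus strand and Hadhb at chr5:30155248-30184593 on the plus strand (GENCODE M21, GRCm38), with annotated starts 86 bases apart. RefSeq places the start of Hadha further inside the gene, and its starts are 273 bases apart. The 85 bases between both genes, at chr5:30155163-30155247 on the plus strand, are shown because they lie upstream of both members in either annotation, and 69.4% of them are G or C. The letters are from the RefSeq promoter table for GRCm38.p6.
Hadha to Hadhb: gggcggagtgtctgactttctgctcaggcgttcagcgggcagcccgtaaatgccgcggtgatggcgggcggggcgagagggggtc
The ratio of Hadha to Hadhb UMIs varied little over 20 values, 5 epithelial classes in 4 libraries: from 1.01 to 1.56. By class, its median was 1.39 in enterocytes, 1.11 in stem-gated, 1.25 in cycling, 1.48 in goblet and 1.35 in enteroendocrine cells. Etfa to Etfb, subunits of 1 protein from separate loci, ranged from 0.456 to 0.850. The neighbouring paralogs varied far more: Acaa1a to Acaa1b from 1.72 to 25.2 and Acot1 to Acot2 from 1.23 to 13.5. Within enterocytes the Acot1 to Acot2 ratio was 2.24 to 3.50, and in stem-gated cells 7.74 to 13.5, with no overlap. These points share libraries, and the 5 classes of 1 library share its free RNA.

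**Figure D2:**
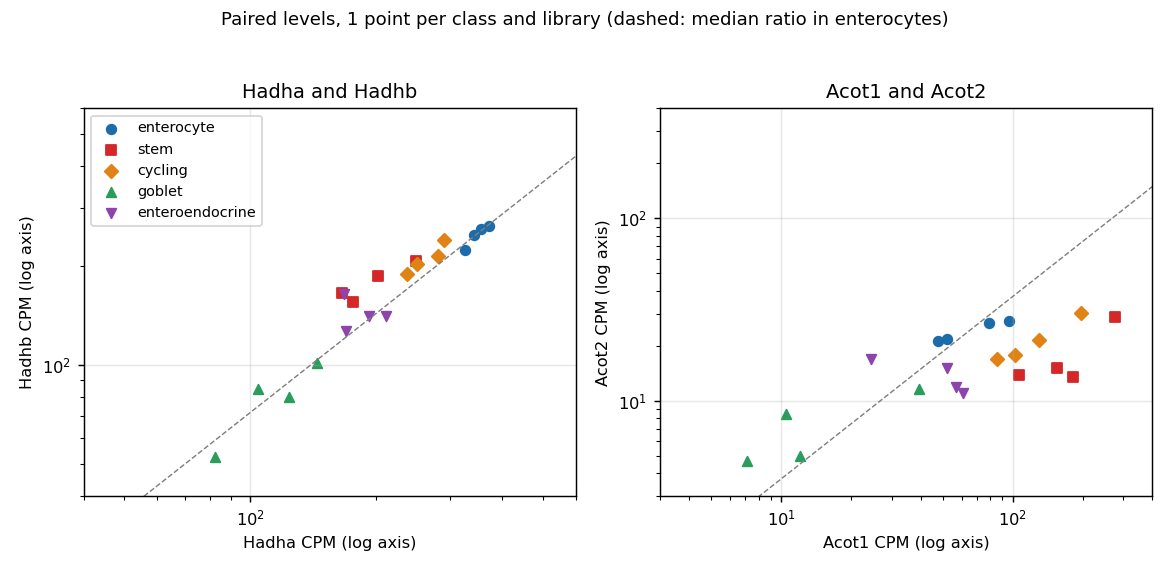
Levels of Hadha against Hadhb (left) and Acot1 against Acot2 (right), in CPM on log axes, 1 point for each of 5 classes in each of 4 libraries. The dashed line is the median enterocyte ratio. Hadha and Hadhb stay near the line, with ratios of 1.01 to 1.56, while stem-gated and cycling cells leave it for Acot1 and Acot2.

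The regions before the start sites were searched for the direct repeat that PPAR and the retinoid X receptor bind, written AGGTCANAGGTCA, on both strands in the 250 bases before each start. The RefSeq table held 21 of the 28 genes. None held the repeat with at most 1 mismatch, against 0.484% of 32851 promoters. With at most 2 mismatches 1 of 21 matched (4.76%), against 3.24% of all promoters, and with at most 3 mismatches 4 of 21 (19.0%), against 21.3%. The shares are near those of all promoters. The only match with 2 mismatches lies before Etfa, on the strand opposite to the gene, 64 bases before its start. It is shown with 24 bases on either side at chr9:55512284-55512344, minus strand, GRCm38.p6, with the match in capitals.
Etfa: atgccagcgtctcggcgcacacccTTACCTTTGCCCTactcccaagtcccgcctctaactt
A match is only a run of letters, and its absence in this window says nothing of binding elsewhere.

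Position along the villus was taken from Apoa4, an apolipoprotein whose level increases toward the tip. Enterocytes of each library were cut into 5 equal bins by the Apoa4 share of their UMIs, and the top and bottom bins compared, with a call at 1.5-fold in all 4 libraries. Of the 28 genes 7 were lower in the top bin: Ppara, Cpt1a, Slc25a20, Acot1, Acot2, Eci1 and Eci2. Of 6539 genes tested, 23.9% were lower by this rule. None of the 28 was higher, against 12.8% of all genes. The median log2 ratio was -0.77 over the 28 genes and -0.16 over all genes. The share of members called is near that of all genes, while their median lies lower.

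Ppara and Acot1 had the largest median differences among the called genes. Ppara stood at 29.0, 34.9, 51.7 and 44.4 CPM in the bottom bin of libraries 1 to 4 and at 3.05, 17.2, 10.3 and 10.6 CPM in the top bin, 2.03-fold to 9.52-fold lower. Acot1 stood at 76.4, 76.5, 141 and 109 CPM in the bottom bin and at 6.09, 24.2, 20.8 and 28.8 CPM in the top bin, 3.17-fold to 12.5-fold lower. For both genes every bottom value lies above every top value. Eci1 was 1.85-fold to 5.71-fold lower at the top, Eci2 2.39-fold to 5.50-fold, Cpt1a 1.99-fold to 3.96-fold, Slc25a20 1.72-fold to 2.40-fold and Acot2 1.77-fold to 5.80-fold.

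The other genes fell into a few shapes. In all, 18 of 28 were lower in the top than in the bottom bin in all 4 libraries, 4 were higher in all 4 (Ehhadh, Acaa1b, Vnn1 and Crat) and 6 varied in direction. The highest level was in the first bin in all 4 libraries for 10 genes and in the second to the fourth bin in all 4 for 5. These counts have no share over all genes beside them and describe only the 28 genes. Acaa2 was at 537, 474, 635 and 616 CPM in the bottom bin and at 96.4, 364, 126 and 238 CPM in the top bin. Cyp4a10 peaked in the second or the third bin, at 69.9, 53.1, 137 and 121 CPM, and stood at 9.43, 35.9, 13.1 and 32.4 CPM in the top bin. The 4 genes that were higher at the top were 2 peroxisomal enzymes, Crat and Vnn1. Crat was 1.33-fold to 2.22-fold higher, Ehhadh 1.31-fold to 2.08-fold, Acaa1b 1.06-fold to 4.39-fold and Vnn1 1.03-fold to 1.61-fold.

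**Figure D3:**
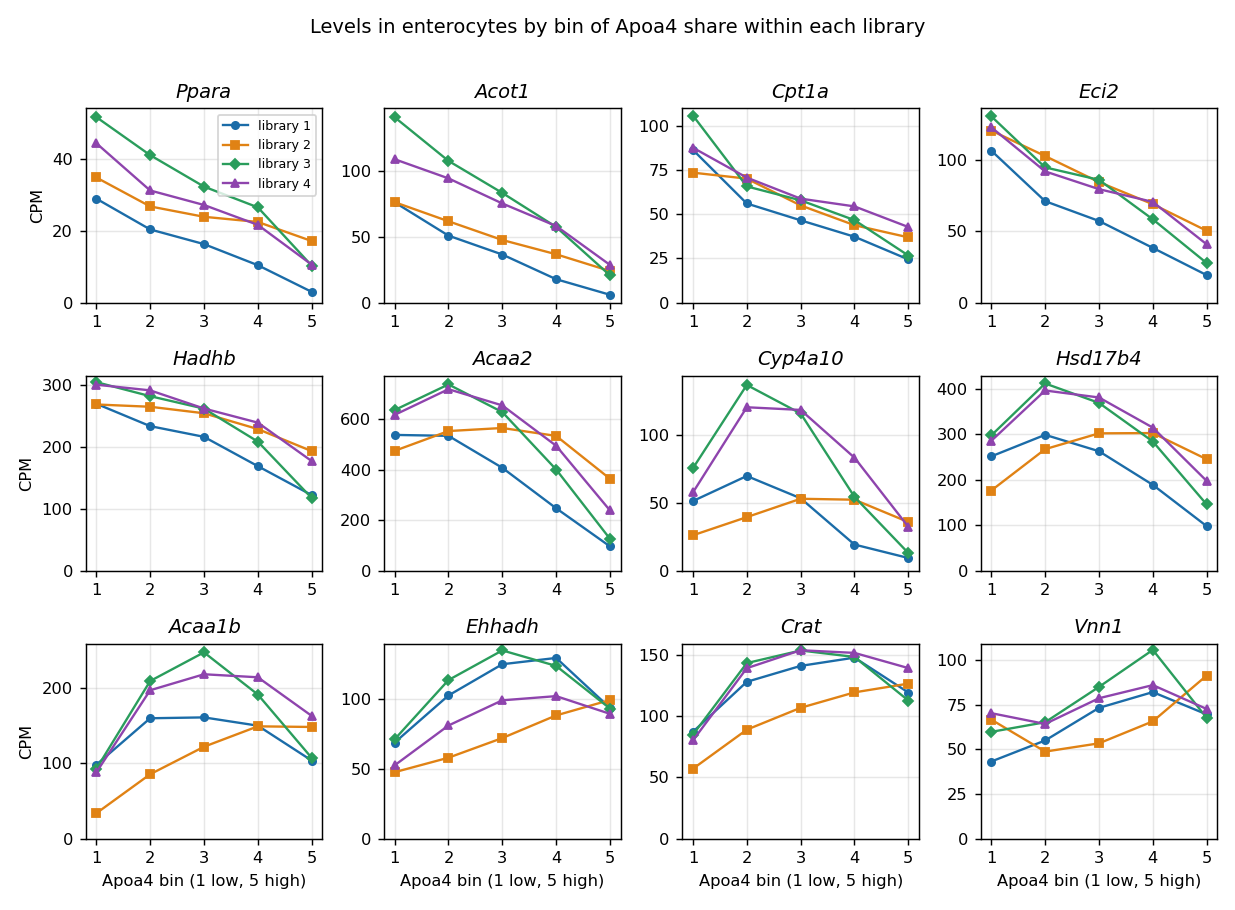
Levels in CPM of 12 genes (y axis, from 0) in the 5 bins of enterocytes ranked by Apoa4 share (x axis), 1 line per library. Ppara, Acot1, Cpt1a and Eci2 are highest in the first bin of every library, Cyp4a10 and Acaa1b in the second, the third or the fourth.

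Library 2 stands apart in this ranking. Its top bin held 22034 CPM of Apoa4 against 43828 to 60950 in the others, so it reaches less far up the range. Without library 2 the count of lower genes was 13 in place of 7. With cuts of Apoa4 common to all libraries 13 genes were lower, the 7 and Acadm, Hadhb, Cyp4a10, Acaa2, Etfdh and Decr1, and 3 were higher (Ehhadh, Acaa1b and Crat). In these common bins 22 genes were lower at the top in all 4 libraries. No share over all genes is given for the counts in this paragraph, so they describe only the genes of the set. When cells were ranked by tip markers minus base markers without Apoa4, no gene was called lower. When the tip markers without Apoa4 were used alone, 7 were, with Cyp4a10 and Acaa2 in place of Slc25a20 and Eci1, and Vnn1 was higher. Depth and mitochondrial share moved with position: the mitochondrial share was 9.27% to 10.4% in the bottom and 12.7% to 14.7% in the top bin, and the median UMI count of library 1 was 36822.5 at the bottom and 9655 at the top. Their part in the gradients was not tested, beyond the counts with other mitochondrial limits given at the end.

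The bottom bin also held the enterocytes with ileum markers: Fabp6, the ileal bile acid binding protein, was at 1785 to 3142 CPM there and at 22.3 to 35.8 CPM in the top bin. Enterocytes with at least 0.5% of UMIs in Fabp6, Slc10a2 and Fgf15 were therefore set against the other enterocytes of the lowest common Apoa4 bin (59, 183, 109 and 115 cells against 516, 1542, 471 and 736). At 1.5-fold in all 4 libraries 12 of the 28 genes were lower in the ileum-marker cells, against 16.0% of 6525 genes, and 1 was higher, against 9.32%. The genes lower were Cpt1a, Acadl, Acadvl, Hadhb, Acaa2, Etfdh, Eci2, Acot1, Acot2, Acaa1b, Cyp4a10 and Pdk4. The median log2 ratio was -0.66 over the 28 genes and -0.12 over all genes.

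The largest of these differences were in thioesterases and classical targets. Acot1 stood at 0.670, 9.45, 5.74 and 5.94 CPM in ileum-marker cells and at 86.7, 77.0, 165 and 117 CPM in the others. In library 1 that is a single UMI, and the ratio of 130 there has a counting interval of 23.2 to 5120. The other 3 libraries gave 8.15-fold, 28.8-fold and 19.8-fold lower levels. Cyp4a10 was 9.30-fold to 23.0-fold lower, with only 3 UMIs in the ileum-marker cells of library 1 (counting interval 7.85 to 112). Pdk4 was 3.28-fold to 13.3-fold lower and Acot2 4.25-fold to 13.1-fold lower.

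Vnn1 went the other way, from 32.0, 40.1, 34.1 and 49.3 CPM in the other cells to 224, 259, 261 and 251 CPM in ileum-marker cells (5.09-fold to 7.64-fold). Acaa1a was 1.10-fold to 1.32-fold higher in them, while its neighbour Acaa1b was 1.58-fold to 6.52-fold lower. Ppara was lower in all 4 libraries, by 1.23-fold to 2.44-fold, and missed the rule. Apoa4 itself was lower in the ileum-marker cells, at 670 to 1069 CPM against 1654 to 2164, so the 2 sets were not fully matched in position. Among cells under 0.15% Apoa4, the sets stood at 407 to 720 and 630 to 835 CPM of Apoa4. There 11 genes were lower and Vnn1 alone was higher by the rule, with no share over all genes given. The log2 ratio of Acot1 was -6.93 to -5.02. It rests on few UMIs, at 0.747, 2.90, 5.78 and 1.40 CPM in 53, 144, 77 and 92 ileum-marker cells.

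**Figure D4:**
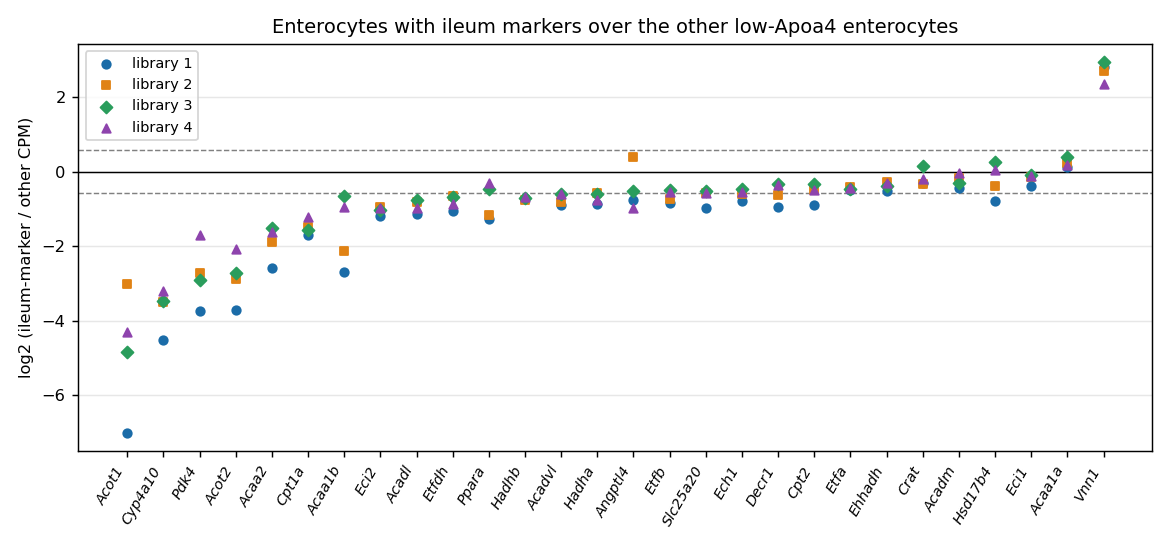
Log2 ratio of the level in enterocytes with ileum markers to that in the other enterocytes of the lowest common Apoa4 bin (y axis), 1 point per library, with the genes ordered by their median. Dashed lines mark 1.5-fold. Acot1, Cyp4a10, Pdk4 and Acot2 lie lowest, with all points under -1.7, and Vnn1 lies above 2 in all 4 libraries.

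The spread over libraries was described next, since the libraries include both diets in an order that is not known here. In enterocytes 5 of 28 genes had a highest level at least 1.5 times the lowest, against 12.8% of 6408 genes: Cyp4a10 (2.21-fold), Acot1 (2.03-fold), Ppara (1.92-fold), Acaa1b (1.70-fold) and Ehhadh (1.52-fold). Without library 2 the count was 3. The highest level was in library 3 for 14 genes and in library 4 for 11, and the lowest in library 1 for 20. Over all genes the highest level was in library 3 for 2427, in library 2 for 1772, in library 1 for 1344 and in library 4 for 865, and the lowest in library 1 for 1858 and in library 2 for 2518. With equal weight on each common Apoa4 bin 4 genes had such a range (Cyp4a10, Acot1, Ppara and Acot2), against 6.78% of 6386 genes. The lowest level was then in library 2 for 16 of the 28 genes and in library 1 for 9, so the library that was lowest for most genes changed with the weighting, while library 3 held the highest level for 14 under either weighting. Over all genes the lowest was then in library 2 for 2429 and in library 1 for 1345. Cyp4a10 was then at 45.7, 35.2, 87.7 and 79.1 CPM and Acot1 at 45.5, 37.4, 92.7 and 74.9 CPM, libraries 3 and 4 above libraries 1 and 2 for both.

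In crypt cells 5 of the 25 genes tested had a 1.5-fold range, against 5.56% of 7786 genes: Pdk4 (3.15-fold), Angptl4 (2.88-fold), Acot1 (2.44-fold), Acot2 (1.82-fold) and Ppara (1.51-fold). Cyp4a10, Acaa1b and Vnn1 were below 10 CPM there and not tested. The first 4 genes were highest in library 3, and 17 of 28 genes were highest there, against 2268 of the 7786 genes. Angptl4 stood at 15.8, 12.8, 37.7 and 21.5 CPM in stem-gated cells and at 17.5, 10.7, 29.7 and 18.9 CPM in cycling cells. Pdk4 stood at 13.9, 8.93, 39.1 and 4.30 CPM in stem-gated cells, the last from 7 UMIs with an interval of 1.73 to 8.86, and at 19.3, 12.4, 36.3 and 17.2 CPM in cycling cells. In both classes library 3 was the highest for both genes, and its interval in stem-gated cells overlapped no other. In enterocytes the same 2 genes ranged over only 1.15-fold and 1.41-fold. Library 3 also held the most T and NK cells, where Pdk4 was at 11.0 and Angptl4 at 10.0 CPM. The part of those cells in the crypt values was not tested.

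**Figure D5:**
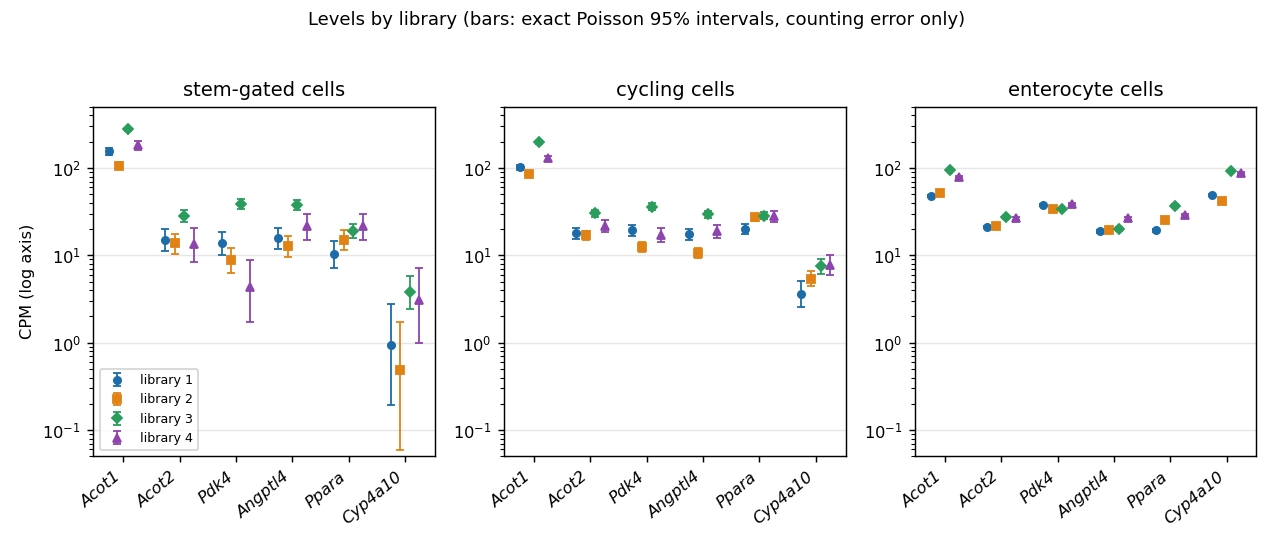
Levels in CPM on a log axis of 6 genes in stem-gated, cycling and enterocyte cells of libraries 1 to 4, with exact Poisson 95% intervals that cover counting error only. Acot1, Acot2, Pdk4 and Angptl4 are highest in library 3 in both crypt classes, while in enterocytes Pdk4 ranges over 1.15-fold.

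Other epithelial classes held most of the genes at lower levels. In goblet cells, Acot1 was at 7.10, 12.0, 39.3 and 10.4 CPM and Hadha at 82.2, 104, 144 and 124 CPM. Cyp4a10 in goblet cells was at 6.73, 4.45, 16.6 and 16.0 CPM, against 49.7, 41.8, 92.5 and 88.1 CPM in enterocytes. Goblet cells had a median of 22708.5 UMIs, against 3816 in T and NK cells. The free RNA shares of T and NK cells may therefore not apply to goblet cells. How much of the goblet level of Cyp4a10 is background was not tested. Tuft cells, chemosensory cells of which 21, 12, 13 and 10 were found, had Slc25a20 at 207, 162, 185 and 140 CPM from 56, 31, 28 and 16 UMIs. This was above the enterocyte level of 82.0, 91.2, 96.9 and 103 CPM in all 4 libraries, but in library 4 the interval of 79.9 to 227 CPM included the enterocyte level. Cpt1a in tuft cells was also above enterocytes in all 4, at 114, 120, 99.1 and 87.3 CPM against 57.7, 57.7, 68.3 and 65.5 CPM. Its intervals in libraries 3 and 4 included the enterocyte level. Slc25a20 was at 82.7 and 140 CPM in the myeloid cells of libraries 1 and 3. Paneth cells numbered 14 to 87 a library and are not described further.

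The neighbouring genes of the pathway were taken from lists of 118 genes outside the 28, without the enterocyte gate markers. Of 83 tested, 34 were at least 2-fold higher in enterocytes in all 4 libraries and 12 lower. Of all genes, 13.7% were higher and 28.9% lower by this rule. Of 80 tested by position, 18 were higher and 13 lower in the top bin, against 12.8% and 23.9% of all genes. Further peroxisomal genes were higher in 15 of 21 tested and lower in none, among them Abcd3, a peroxisomal membrane transporter, at 288, 281, 326 and 319 CPM against 97.2, 94.6, 113 and 99.9 CPM in crypt cells. All 4 omega oxidation genes tested were higher, for example Cyp4f14. Among further mitochondrial genes 4 of 14 were higher (Acad11, Hadh, Slc22a5 and Pccb) and 4 lower (Acad9, Hsd17b10, Mcee and Pcca). Acad11 is in both the mitochondrial and the peroxisomal list and is counted as higher in each.

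Of 17 receptor and coregulator genes tested, Ppargc1a, a coactivator of PPAR alpha, was the only one higher in enterocytes (87.1, 73.9, 78.5 and 73.6 CPM against 11.6, 10.9, 10.1 and 9.34 CPM), and Rxrb, Ppargc1b and Pprc1 were lower. Ppard, the related receptor PPAR delta, was at 44.7, 34.1, 32.1 and 33.1 CPM in enterocytes and at 38.6, 32.8, 31.3 and 33.1 CPM in crypt cells. Fgf21, a hepatic PPAR alpha target, had no UMI in enterocytes or crypt cells, which allows up to 0.0322 CPM in enterocytes and 0.322 CPM in crypt cells of any library (3 counts per library), and Cyp4a14 had 1 UMI in the enterocytes of each of libraries 1 and 4 and none in those of the other 2. Of 13 further PPAR targets tested 8 were higher in enterocytes and none lower, against 13.7% and 28.9% of all genes. Among the 8 was Cd36, a fatty acid transporter, at 87.0, 70.9, 132 and 105 CPM against 2.86, 4.13, 5.07 and 4.73 CPM.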

How the data were processed

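Cells of the gut epithelium were measured in 4 libraries. The authors deposited UMI counts as an integer matrix of genes by barcodes, without normalization, per the file headers. The submitters' processing notes name Cell Ranger 6.1.1 and mm10. No annotation or barcode filter is stated in these sources. A barcode was kept if it had at least 500 UMIs and 250 genes and no more than 25% mitochondrial UMIs. Classes were set by gates on the share of UMIs in fixed marker lists (enterocyte at least 3%, stem and cycling at least 0.1%), with limits chosen after seeing the data. Cells passing more than 1 of the goblet, Paneth, enteroendocrine, tuft, T and NK, B, plasma, myeloid and mast gates were left out. Those passing both the stem and the cycling gate were counted as cycling. Cells that passed the enterocyte gate and also the stem or cycling gate were counted as enterocytes. Doublets were scored with Scrublet in scanpy 1.11.5 and kept. Its automatic threshold marked too few cells in 2 libraries, so the 6% with the highest scores were removed as an alternative. Counts were summed per library and class and scaled to 1000000. Because no library could be tied to a sample, the planned tests between diets were not run. The call step was tested on simulated data. All 28 genes are named, and other genes come from lists fixed by name. Some genes of these lists are counted but not reported by name here. The genes and lists were chosen with earlier results of these data known. Analyses used Python 3.11.15, numpy 2.4.6, scipy 1.17.1, GENCODE M21 and RefSeq tables.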

Additional observations from a re-analysis of the deposited data

How the results depend on the processing

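The counts of genes higher (8) or lower (0) in enterocytes than in crypt cells stayed within 1.5-fold under every setting run, including removal of high doublet scores, other barcode filters and each library left out in turn. The position counts did not. The count lower in the top Apoa4 bin was 13 with Apoa4 cuts common to all libraries and 0 when cells were ranked by tip minus base markers, and 7 to 13 with 1 library left out, the highest without library 2. The count higher in the top Apoa4 bin, 0 as reported, was 3 with common cuts and 1 each with at most 15% mitochondrial UMIs, with the 10% of cells highest in ileum markers removed and, added after seeing the data, with tip markers alone. The count with a 1.5-fold range over libraries in enterocytes was 3 to 5 with 1 library left out, the lowest without library 2. At most 50% mitochondrial UMIs, a limit also added afterwards, gave 7 higher in enterocytes, 9 lower in the top Apoa4 bin and 4 with a library range. No share over all genes is given for the counts under these settings, so they describe only the genes of the set. Of 728 values of single genes under the alternatives, 692 kept their call, 25 gained one and 11 lost one. The cause of these shifts was not tested. No paired analysis was possible because the barcode numbers carry no sample, and for the same reason the replicate block and the second count model were not run. Depth limits genes near 1 to 3 UMIs, such as Acot1 in ileum-marker cells.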
